A study of Mus musculus with 16 samples.

Results

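The genes examined were the 6 core pluripotency factors Pou5f1 (which encodes OCT4), Sox2, Nanog, Utf1, Sall4 and Lin28a of mouse embryonic stem (ES) cells. They were chosen by name, and all 6 were listed in each of 3 expression tables, out of 24320 gene names common to the tables. The study's title concerns PML nuclear bodies, TRIM33 and the Lefty1 and Lefty2 genes. Its 16 RNA-seq libraries, in 8 groups of 2, are described as coming from E14Tg2a.IV cells (strain given as C57BL/6). The cells were grown feeder-free on gelatin with serum and leukemia inhibitory factor. A second line, CCE, appears in the culture protocol without being tied to any sample. One table compared untreated wild-type (WT) with untreated Pml knockout (KO) cells. Another compared untreated WT cells with WT cells exposed for 2 h to sodium arsenite at 200 µM, which oxidises and misfolds proteins. The last held cells labelled WT or Trim33 KO, each given 50 ng/ml activin A, a ligand of the SMAD2 and SMAD3 pathway, or SB431542 at 10 µM, which blocks the activin receptor kinase, for 2 h. That table had no group without activin A or SB431542. The sources used here do not say how either knockout was made or whether it is 1 clone.

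OCT4 and SOX2 are DNA-binding factors that occupy adjacent sites at many ES cell enhancers and keep one another and Nanog expressed. NANOG is a homeodomain protein that stabilises self-renewal and whose level varies from cell to cell. SALL4 is a zinc finger protein that can bring the NuRD deacetylase complex to chromatin, UTF1 is a chromatin-associated cofactor whose gene is a target of OCT4 and SOX2, and LIN28A is an RNA-binding protein that blocks maturation of the let-7 microRNAs. In bulk RNA, fewer cells that express a gene and less RNA per cell cannot be told apart.

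All 6 genes were called with arsenite, as were 67.7% of all genes tested. Nanog fell to 17.8% of its untreated level (ratio of mean RPKM), Sox2 to 53.7% and Pou5f1 to 59.3%, while Utf1 rose to 128%. In Pml KO cells Utf1 was lower, at 75.3% of WT, Lin28a was higher, at 115%, and the other 4 did not pass the test. Of all genes tested in that comparison 35.5% were called. In the Trim33 table Nanog was the member with the widest range, from 67.1 to 321 RPKM, and the direction of its difference between genotype labels was opposite with activin A and with SB431542, as was that of Trim33 itself.

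The promoter sequences of the members that moved in opposite directions under arsenite are shown first. RefSeq promoter windows of 300 bases (250 before to 50 after the start site, GRCm38.p6, the assembly also called mm10) were matched by symbol for 5 of the 6 genes, all but Sall4. RefSeq's start sites for Pou5f1, Sox2, Utf1 and Lin28a differ from the gene starts in the GENCODE annotation given below. Both strands were searched for ATGCAAA (the OCT part of the octamer), ACAATG (a SOX site), their joined form TTTGCATNACAATG (each such match also counts for both single motifs), GGGCGG (a GC box), AGGTCA (a nuclear receptor half-site) and CAGAC (a SMAD-binding element). Matches to the OCT, SOX and joined motifs and to the GC box, on either strand, are in capitals. The Nanog window is at chr6:122707239-122707538, the Sox2 window at chr3:34649745-34650044 and the Utf1 window at chr7:139943606-139943905, all on the plus strand.
Nanog: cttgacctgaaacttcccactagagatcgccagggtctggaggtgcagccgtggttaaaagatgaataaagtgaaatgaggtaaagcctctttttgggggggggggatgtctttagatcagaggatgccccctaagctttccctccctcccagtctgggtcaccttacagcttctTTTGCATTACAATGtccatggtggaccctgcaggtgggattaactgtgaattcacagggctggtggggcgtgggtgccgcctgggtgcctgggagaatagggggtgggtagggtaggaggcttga
Sox2: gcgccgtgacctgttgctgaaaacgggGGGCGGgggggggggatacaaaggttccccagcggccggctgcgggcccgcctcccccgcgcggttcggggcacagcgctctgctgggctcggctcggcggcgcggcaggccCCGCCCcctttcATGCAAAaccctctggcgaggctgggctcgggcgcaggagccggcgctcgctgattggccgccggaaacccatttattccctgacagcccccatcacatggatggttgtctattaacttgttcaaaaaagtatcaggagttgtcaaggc
Utf1: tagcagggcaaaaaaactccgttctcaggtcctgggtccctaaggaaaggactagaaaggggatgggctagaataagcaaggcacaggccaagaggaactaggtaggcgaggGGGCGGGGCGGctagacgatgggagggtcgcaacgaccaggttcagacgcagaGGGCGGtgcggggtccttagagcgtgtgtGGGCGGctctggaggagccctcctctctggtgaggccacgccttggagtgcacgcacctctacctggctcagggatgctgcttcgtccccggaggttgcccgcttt
The Nanog window held the joined OCT and SOX motif from 75 to 62 bases before the start site (the first transcribed base counted as 0). Only 2 of 32851 windows held it (0.00609%), and both were windows of Nanog that overlap. The Sox2 window held ATGCAAA 99 to 93 bases before the start, a motif found in 4.63% of windows. The Utf1 window held neither ATGCAAA nor ACAATG, and it held 4 GC boxes, 2 of which overlap. At least 1 GC box was found in 35.7% of windows. The Sox2 window, the Lin28a window and 1 of 2 Pou5f1 windows held it too. The Lin28a window held ACAATG on the opposite strand. The other Pou5f1 window, which lies inside the gene at chr17:35508557-35508856, held ACAATG on the plus strand. ACAATG was found in 12.6% of windows, AGGTCA in 16.3% and CAGAC in 49.6%. These matches describe letters in a window and do not show binding. The enhancers of these genes lie outside the windows.

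By GENCODE annotation of GRCm38, Pou5f1 (ENSMUSG00000024406.16) is at chr17:35506018-35510772 (plus strand; its longest coding transcript has 5 exons). Sox2 (ENSMUSG00000074637.7) is a single-exon gene at chr3:34650405-34652461, plus strand. Nanog (ENSMUSG00000012396.12) is at chr6:122707489-122714633, plus strand, with 4 exons, and Utf1 (ENSMUSG00000047751.9) at chr7:139943789-139945112, plus strand, with 2. Sall4 (ENSMUSG00000027547.17) is at chr2:168748332-168767943 and Lin28a (ENSMUSG00000050966.9) at chr4:134003330-134018841, both on the minus strand with 4 exons. The members' transcripts were compared with all other annotated transcripts in words of 50 bases, because reads from shared words can be split between genes. Sox2 and Utf1 shared none. Nanog shared 4.62% of its words, most of them with the pseudogene Nanog-ps1. Sall4 shared 7.64%, all with Gm14261, and Lin28a 4.72%, all with Gm13061. Pou5f1 shared 10.1% of its words, 9.54% of them all with Gm19553, which is not listed in any of the tables. Reads that lie within those shared words cannot be told apart between Pou5f1 and Gm19553 if counting ignored strand. The sources used here do not say whether it did.

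The libraries were checked once for depth, labels and other cell types. From low values, the arsenite libraries came to 46700000 to 48400000 reads and the Trim33 table's libraries to 31100000 to 39500000, while the depth of the Pml table is unknown. Each member had at least 4760 reads in every library of those 2 tables. Pml was at 49.8 and 45.1 FPKM in WT and 32.02 and 33.5 in Pml KO libraries, which is 69.0% of the WT mean. Which part of the gene was altered is not stated in the labels, so this level checks the label only in part. Trim33 was at 20.1 and 23.5 RPKM in the libraries labelled WT with activin A and at 2.53 and 2.79 in those labelled KO with activin A. With SB431542 the order was the other way: 2.94 and 2.44 RPKM in the libraries labelled WT and 18.3 and 24.6 in those labelled KO. The Y-linked gene Eif2s3y had the same arrangement: 38.3 and 41.0 RPKM (labelled WT) and at most 0.0651 RPKM (labelled KO) with activin A, at most 0.143 RPKM (labelled WT) and 40.0 and 38.5 RPKM (labelled KO) with SB431542. It was also lower in Pml KO (0.753 and 1.10 FPKM) than in WT (16.2 and 20.6 FPKM). The reference gene Hprt was at most 0.665 FPKM in the Pml table's libraries and at most 0.317 RPKM in the arsenite table's. In every library of the Trim33 table Hprt was at 134.5 RPKM or more. Whether the libraries of all tables came from the same line was not tested. Labels were kept as given, so each direction between genotypes with SB431542 is one between libraries labelled so.

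Levels are compared between genes within a table, since both units are scaled for length. Pou5f1 was the highest of the 6 in all 16 libraries, at 36.0% to 57.7% of their summed level. Sall4 was the lowest in 14 of them, and in both arsenite libraries Nanog was the lowest. In the Pml table the order was the same in all 4 libraries: Pou5f1, Utf1, Sox2, Nanog, Lin28a, Sall4. In the untreated cells of the arsenite table Sox2 stood above Utf1, at 557 and 558 against 301 and 286 RPKM. With activin A in the libraries labelled WT, Sox2 (226 and 215 RPKM) and Utf1 (285 and 200.04 RPKM) overlapped, so their order there was within the spread. The 3 tables were normalised separately, and a level in one is not compared by test with a level in another.

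**Figure D1:**
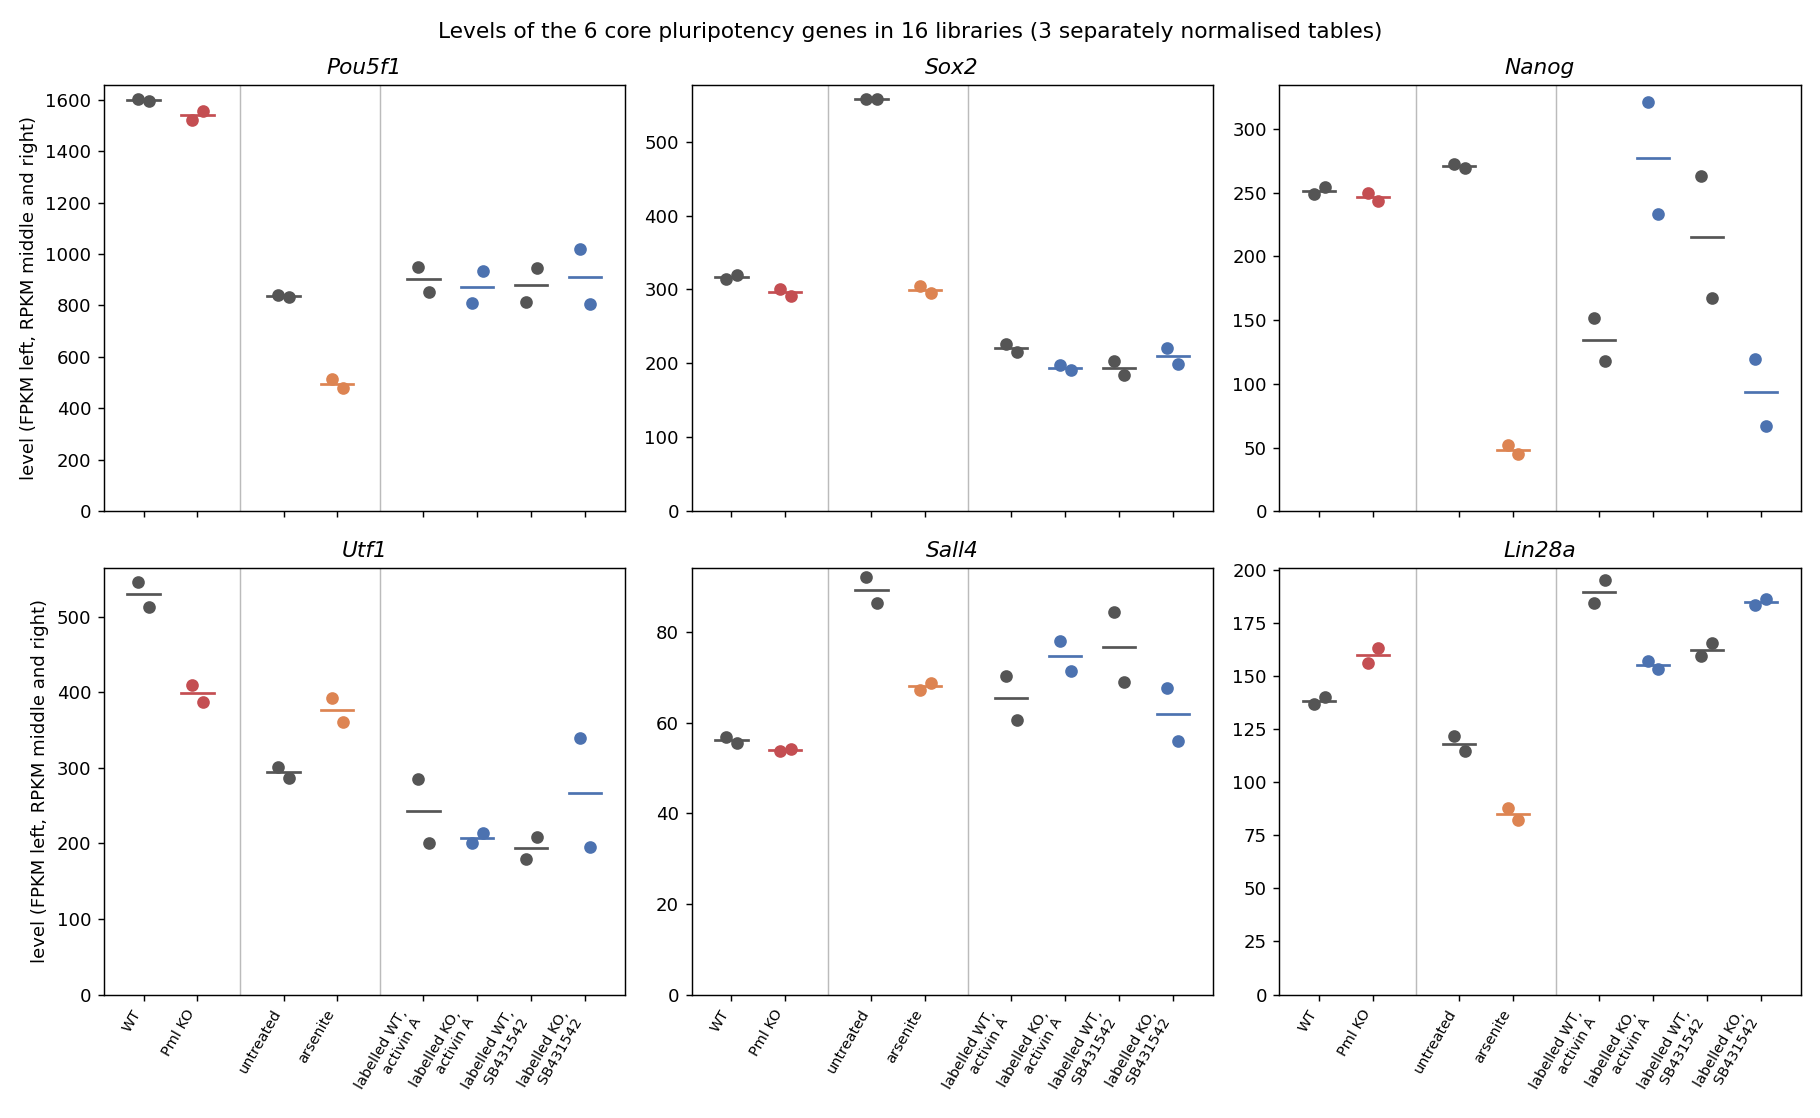
Level of each core factor (vertical axis from 0, FPKM for the Pml table at left, RPKM for the arsenite and Trim33 tables) in every library (points) with the mean of each group (lines). In the arsenite table the treated libraries lie below the untreated ones for 5 genes and above them for Utf1, and in the Trim33 table Nanog spans 67.1 to 321 RPKM.

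The arsenite comparison asks how 2 h of this stress changed RNA levels in WT ES cells. Differences were tested with limma on log2(value + 1), with Benjamini-Hochberg adjustment over all genes tested and a call at adjusted p under 0.05. A fold change below is on that log2(value + 1) scale, ± its standard error. The labels do not say whether paired libraries were grown as independent cultures, and the p-values then cover the spread of these libraries alone, which may be technical. All 6 members passed the filter on low values in every table. With arsenite 5 members were called lower and 1 higher, where 67.7% of the 12136 genes tested were called, 40.7% higher and 27% lower. The median log2 fold change was -0.61 over the 6 members and 0.08 over all genes tested.

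Nanog was at 273 and 269 RPKM in untreated cells and at 51.6 and 45.1 RPKM with arsenite. Both arsenite libraries were far below both untreated ones. The log2 fold change was -2.47 ± 0.06 (limma, adjusted p = 1.91e-07). Of all genes by level, Nanog stood at place 212 and 214 in the untreated libraries and at place 1574 and 1818 with arsenite.

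Sox2 was at 557 and 558 RPKM untreated and at 304 and 295 RPKM with arsenite, a log2 fold change of -0.89 ± 0.04 (limma, adjusted p = 1.414e-06). Pou5f1 was at 839.75 and 831.58 RPKM untreated and at 513 and 477.8 RPKM with arsenite, a log2 fold change of -0.75 ± 0.05 (limma, adjusted p = 7.442e-06). The untreated libraries had a coefficient of variation of 0.107% for Sox2 and 0.692% for Pou5f1, and they did not overlap the treated ones. Relative to Pou5f1 in the same library, Sox2 moved little, from 66.4 and 67.1 units per 100 units of Pou5f1 to 59.4 and 61.7. Nanog moved from 32.5 and 32.4 units per 100 to 10.1 and 9.43.

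Sall4 and Lin28a fell less. Sall4 was at 92.1 and 86.5 RPKM untreated and at 67.2 and 68.8 RPKM with arsenite, a log2 fold change of -0.39 ± 0.04 (limma, adjusted p = 1.58e-04). Lin28a was at 122 and 115 RPKM untreated and at 88.0 and 82.2 RPKM with arsenite, a log2 fold change of -0.47 ± 0.05 (limma, adjusted p = 1.076e-04). Neither gene's groups overlapped.

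Utf1 went the other way. It was at 301 and 286 RPKM untreated and at 392 and 361 RPKM with arsenite, a log2 fold change of 0.36 ± 0.05 (limma, adjusted p = 5.205e-04). Both treated libraries were above both untreated ones. Per 100 units of Pou5f1 in the same library, Utf1 went from 35.9 and 34.4 to 76.5 and 75.5 units, since Pou5f1 fell while Utf1 rose. All 6 calls and their directions held under each of the 4 fits that leave out 1 library and under the 6 other settings run.

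**Figure D2:**
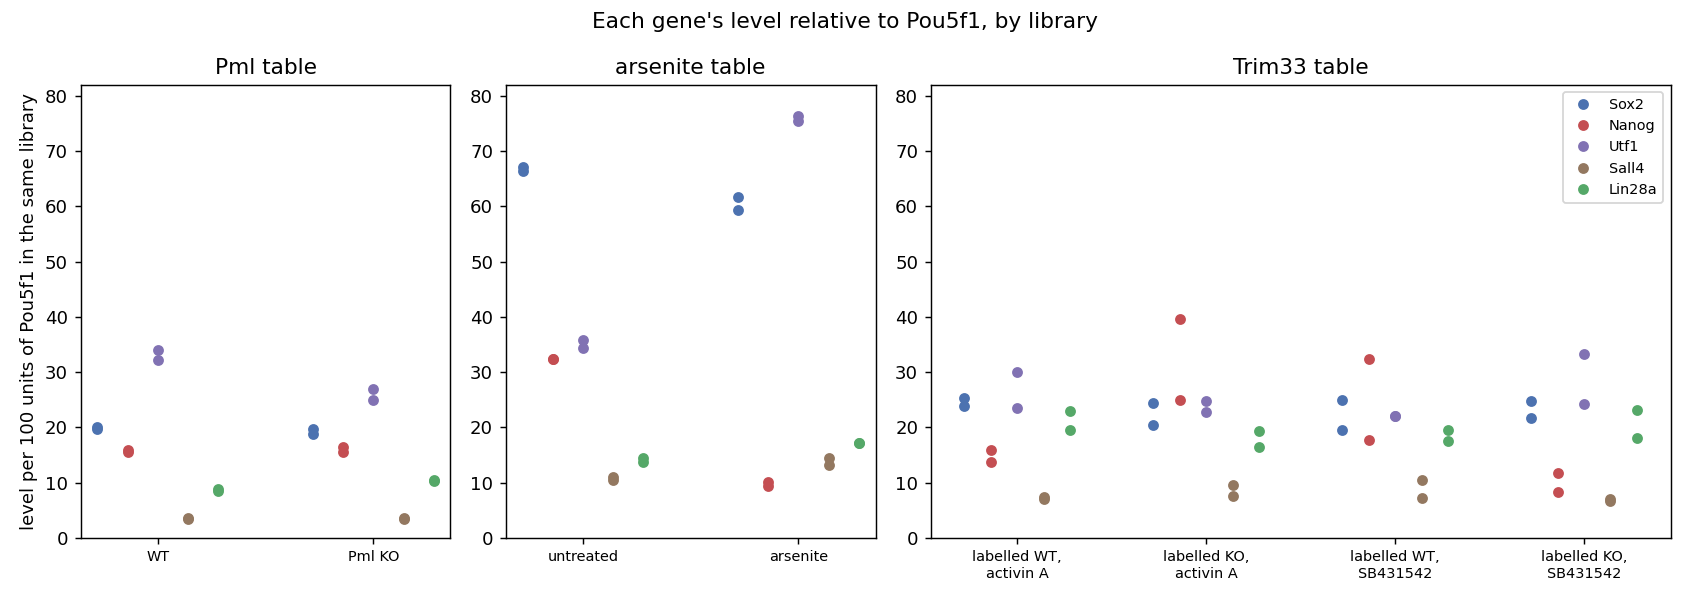
Level of Sox2, Nanog, Utf1, Sall4 and Lin28a per 100 units of Pou5f1 in the same library (vertical axis, no unit), for the 16 libraries by group. With arsenite Utf1 lies at 76.5 and 75.5 and Nanog at 10.1 and 9.43, against 35.9 and 34.4 for Utf1 and 32.5 and 32.4 for Nanog without it.

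A list of genes known as OCT4 and SOX2 targets, which left out Utf1, fell with arsenite in 7 of 7 cases. Their median log2 fold change was -1.44, where 27% of all genes tested were called lower. Utf1, also a target of both factors but counted among the members, rose. Tdgf1, a co-receptor for Nodal, fell from 486 and 497 RPKM to 92.6 and 82.5 RPKM (log2 fold change -2.48 ± 0.06). Fgf4, the growth factor that ES cells secrete, fell from 57.3 and 59.6 RPKM to 11.7 and 10.9 RPKM (-2.28 ± 0.05 on the log2 scale). Zfp42 (REX1), a zinc finger marker of naive ES cells, fell from 628 and 609 RPKM to 146 and 136 RPKM (-2.13 ± 0.04 on the log2 scale). The log2 fold changes of these 3 genes were larger in size than those of Pou5f1 and Sox2 themselves.

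Among 16 other regulators of the pluripotency network, 12 fell, 3 rose and 1 was not called with arsenite, with a median log2 fold change of -0.49. Prdm14, a repressor of differentiation genes, fell from 13.2 and 12.3 RPKM to 0.627 and 0.604 RPKM (log2 fold change -3.09 ± 0.08). Klf4, a zinc finger factor downstream of leukemia inhibitory factor, fell from 169 and 159 RPKM to 24.0 and 22.0 RPKM (log2 fold change -2.79 ± 0.05). Klf2 (-2.21 ± 0.07) and Nr0b1 (-1.46 ± 0.04), which encodes the nuclear receptor DAX1, also fell on that scale.

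Paralogs of the members were mixed. Of 14 tested POU, SOX, SALL and LIN28 relatives, 7 fell and 5 rose with arsenite (median -0.23 on the log2 scale), Sall1 falling by 1.60 on the log2 scale. In the LIN28 and let-7 pathway, 5 of 12 rose and 2 fell (median 0.08): Mycn, a let-7 target that encodes a MYC family protein, fell by 1.35 on the log2 scale, and Hmga2, a let-7 target that encodes a chromatin protein, rose by 0.69. Of 11 NuRD subunits, 3 rose and 4 fell (median 0.07), and of 9 reference genes 4 rose and 2 fell (median 0.07), all medians on the log2 scale.

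Markers of other cell types were read beside these falls. The summed level of 11 trophectoderm markers was 103 and 104 RPKM untreated and 172 to 177 RPKM with arsenite, with Elf5 listed at 0 in both arsenite libraries. Of the 9 tested 8 rose and 1 fell. The sum of 8 fibroblast markers was 68.1 to 68.5 RPKM untreated and 159 to 162 RPKM with arsenite, with Postn listed at 0 untreated, and 3 of 4 tested rose and 1 fell. The sums of 8 primitive endoderm markers (14.2 to 14.6 RPKM untreated, 31.0 to 33.4 RPKM with arsenite) and of 6 mesendoderm markers (4.25 to 4.87 RPKM and 13.9 to 15.5 RPKM) were also higher, with 4 of 5 and 2 of 2 tested genes called higher and none lower. The sum of 6 neuroectoderm markers was lower (52.0 to 53.2 RPKM and 37.0 to 41.2 RPKM), where 3 of 4 tested fell and Nes rose. The 7 markers of the two-cell-like state, of which none passed the filter, summed to at most 2.11 RPKM. Their part in the members' falls was not tested.

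In the Pml table the comparison asks what differed between cells labelled Pml KO, which kept 69.0% of the WT level of Pml RNA, and WT cells. Of the 6 members 1 was called higher and 1 lower, where 35.5% of 11648 genes tested were called, 16.6% higher and 18.9% lower. The median log2 fold change was -0.06 over the members and -0.02 over all genes tested. Utf1 was at 546 and 513 FPKM in WT and at 409 and 387 FPKM in Pml KO libraries. Both knockout libraries were below both WT libraries, and the log2 fold change was -0.41 ± 0.05 (limma, adjusted p = 5.288e-04). Lin28a was at 137 and 140.03 FPKM in WT and at 156 and 163 FPKM in Pml KO libraries, also without overlap. Its log2 fold change was 0.20 ± 0.05 (limma, adjusted p = 0.01125). The call on Lin28a was lost without Pml KO replicate 2 (limma, adjusted p = 0.1063) and without the intensity trend (0.0609), with leave-one-out adjusted p-values from 0.0132 to 0.1063.

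The 3 factors at the centre of the network were close to their WT levels in Pml KO cells. Pou5f1 was at 1601 and 1594 FPKM in WT and 1522 and 1557 FPKM in Pml KO libraries. Its log2 fold change was -0.05, with a 95% interval from -0.16 to 0.05. Sox2 was at 315 and 320 FPKM in WT and 300.2 and 292 FPKM in knockout libraries, a log2 fold change of -0.10 (95% interval -0.20 to 0.00). For Pou5f1 and Sox2 the knockout libraries lay below both WT libraries by a few per cent, and neither difference was called.

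Nanog was at 249 and 254 FPKM in WT and at 249.6 and 243 FPKM in Pml KO libraries, and its groups overlapped. Its log2 fold change was -0.03, with a 95% interval from -0.13 to 0.07. Sall4 was at 56.9 and 55.5 FPKM in WT and at 53.8 and 54.1 FPKM in knockout libraries, a log2 fold change of -0.06 (95% interval -0.17 to 0.06). A change of Nanog or Sall4 of the size seen with arsenite lies outside these intervals.

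**Figure D3:**
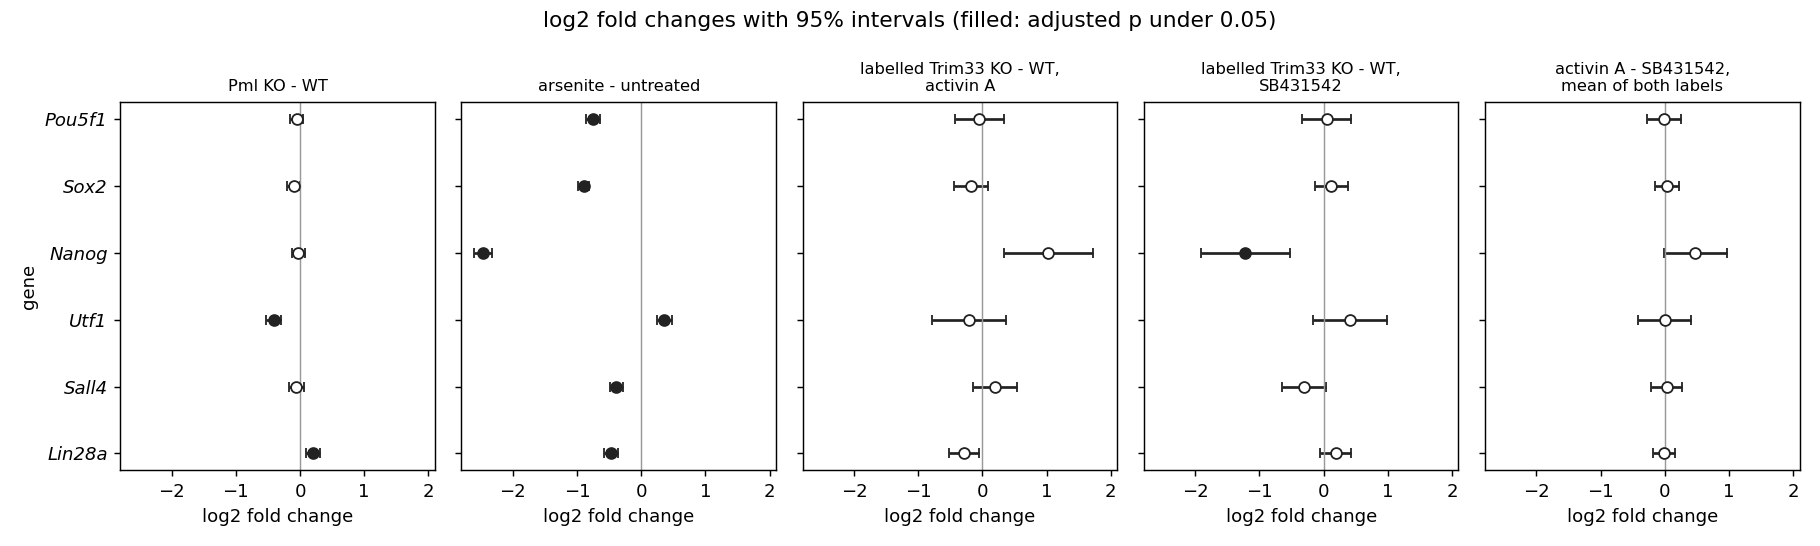
log2 fold change of each core factor (horizontal axis, log2(value + 1) scale) with its 95% interval in 5 comparisons. Filled points passed adjusted p under 0.05: all 6 genes with arsenite, Utf1 and Lin28a in Pml KO, and Nanog between the libraries labelled KO and WT with SB431542.

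Some partners of the core factors were lower in Pml KO cells while Pou5f1, Sox2 and Nanog were not called. Of the 16 network regulators 8 fell and none rose (median -0.17 on the log2 scale). Klf5, a KLF factor of the ES cell network, was at 99.8 and 83.6 FPKM in WT and 52.0 and 51.0 FPKM in knockout libraries (log2 fold change -0.81 ± 0.08). Nr0b1 (-0.44 ± 0.05), Prdm14 (-0.54 ± 0.08) and Klf4 (-0.36 ± 0.06) also fell on that scale. Of the 7 OCT4 and SOX2 targets 3 fell and 1 rose (median -0.09): Lefty1 by 0.64, Tdgf1 by 0.38 and Fgf4 by 0.18 on the log2 scale, while Fbxo15 rose by 0.33.

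Among 12 tested paralogs 5 rose and 1 fell in Pml KO cells (median 0.15 on the log2 scale), with Sox11, a SOX factor of neural progenitors, at 3.12 and 3.15 FPKM in WT and 7.10 and 7.06 FPKM in knockout libraries. Of 12 genes of the LIN28 and let-7 pathway 2 rose and 2 fell (median 0.00). Hmga2 went from 3.59 and 3.49 FPKM to 37.1 and 41.1 FPKM (log2 fold change 3.14 ± 0.08). Of 11 NuRD subunits 1 rose and 1 fell (median 0.00), and of 9 reference genes 1 rose and 2 fell (median -0.03).

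**Figure D4:**
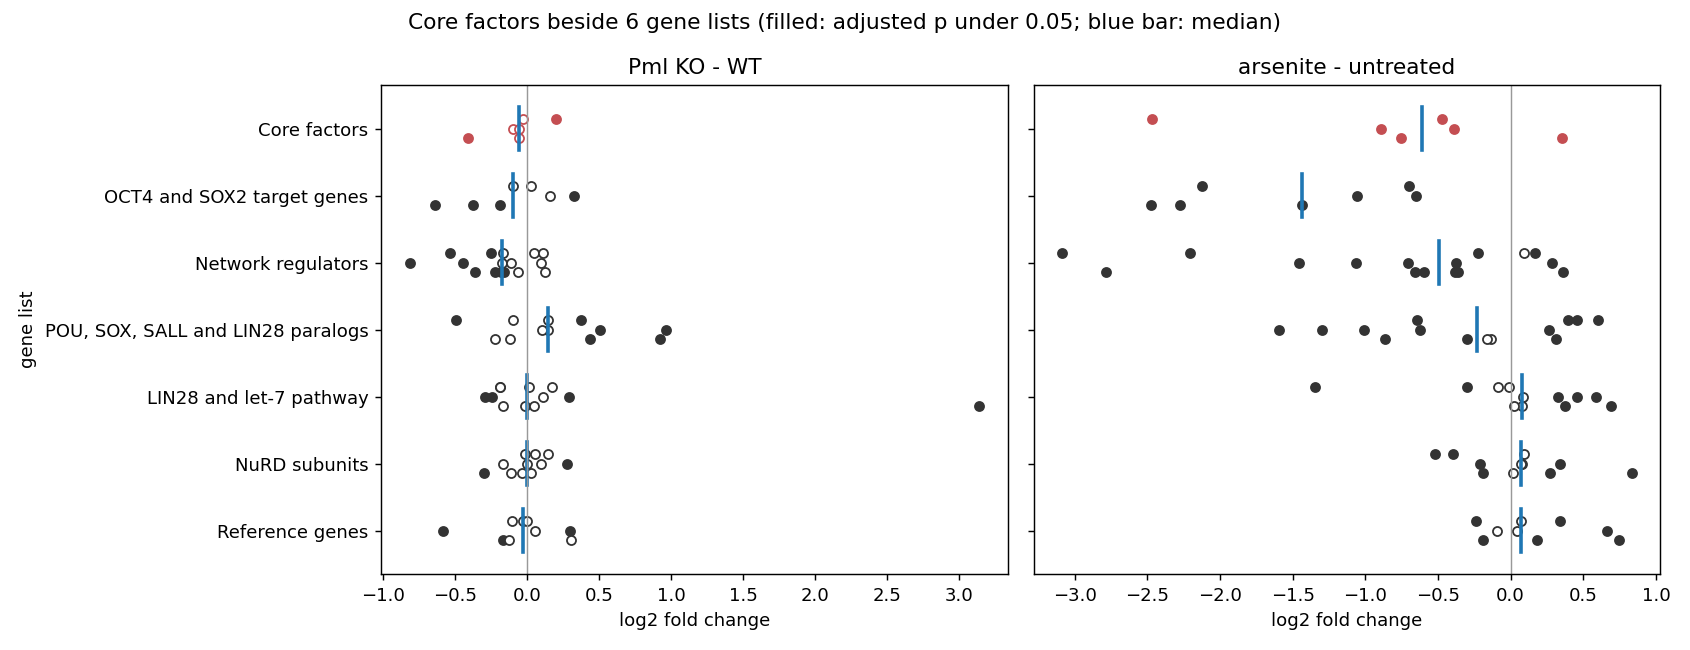
log2 fold change (horizontal axis, log2(value + 1) scale) of the 6 core factors (red) and of 6 gene lists (black) in Pml KO against WT (left) and arsenite against untreated cells (right); each point is a gene, filled where adjusted p was under 0.05, and blue bars are medians. With arsenite the median was -0.61 for the core factors, -1.44 for the listed OCT4 and SOX2 targets (without Utf1) and 0.07 for reference genes.

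Markers of other cell types differed between the Pml groups. The 11 trophectoderm markers summed to 74.4 to 80.5 FPKM in WT and 752 to 763 FPKM in Pml KO libraries, and 8 of 10 tested rose and 1 fell. Cdx2, which defines that lineage, was at 0.810 and 0.612 FPKM in WT and 13.42 and 13.35 FPKM in knockout libraries. The 8 fibroblast markers summed to 106 to 108 FPKM and 535 to 565 FPKM, with Postn listed at 0 in WT, and 6 of 7 tested rose and 1 fell. Mesendoderm sums were 4.56 to 4.71 and 21.7 to 22.2 FPKM, and all 3 tested markers rose. Two-cell-like sums were 3.54 to 3.62 and 14.7 to 16.2 FPKM, and all 4 tested rose. Primitive endoderm markers were mixed: of 4 tested 1 rose and 2 fell, with a median log2 fold change of -0.42. The basement membrane collagen gene Col4a1 rose from 6.22 and 5.23 FPKM to 15.3 and 15.6 FPKM and the sum followed it (13.2 to 13.7 and 18.7 to 19.0 FPKM), while the lineage regulators Sox7 and Gata4 fell, Sox7 from 1.36 and 1.32 FPKM to 0.329 and 0.137 FPKM. The neuroectoderm sum was 102 to 104 FPKM in WT and 97.6 to 98.4 FPKM in knockout libraries, where Nes rose and 2 of 3 tested fell. Their part in the values of Utf1 and Lin28a was not tested, and the lower Eif2s3y of the knockout libraries cannot be told apart from their genotype.

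In the Trim33 table the libraries of Nanog, Sall4 and Lin28a were ordered by genotype label as those of Trim33 were. Lin28a went in the same direction as Trim33 and the others in the opposite one, and Nanog had the largest fold changes. The share of all genes ordered in this way was not counted, so this order is not shown to be particular to these members. With activin A, Nanog was at 152 and 118 RPKM in the libraries labelled WT and at 321 and 233 RPKM in those labelled KO. With SB431542 it was at 263 and 167 RPKM in the libraries labelled WT and at 119 and 67.1 RPKM in those labelled KO. The groups did not overlap in either treatment, and in each treatment the libraries with less Trim33 had more Nanog. The 2 libraries of a group differed widely, with a coefficient of variation of 17.9% to 39.5% for Nanog against 0.895% to 9.55% in the other tables.

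With activin A the log2 fold change of Nanog, labelled KO minus labelled WT, was 1.03 ± 0.30 and missed the threshold (limma, adjusted p = 0.06747). It passed without labelled KO replicate 1 or 2 with SB431542 (limma, adjusted p = 0.03853 and 0.03887), and over the 8 fits that leave out 1 library the adjusted p ran up to 0.3206. None of the 6 members was called there by limma, where 9.43% of 11914 genes tested were called, 6.61% higher and 2.82% lower. At unadjusted p under 0.05 there were 2, Nanog (0.008308) and Lin28a (0.02403). The median log2 fold change was -0.12 over the members and 0.01 over all genes tested. The 95% interval for Nanog, from 0.34 to 1.72, did not include 0. With SB431542 the log2 fold change of Nanog between the same labels was -1.22 ± 0.30 (limma, adjusted p = 0.04036), and Nanog was the 1 member called, where 9.56% of genes were called, 3.01% higher and 6.55% lower. The median there was 0.08 over the members and -0.01 over all genes. That call was lost in 4 of 8 fits that leave out 1 library: the adjusted p-values ran from 0.02649 to 0.1949 and the log2 fold changes from -1.63 to -0.81. These were labelled KO replicate 2 (-0.81; limma, adjusted p = 0.1555) and labelled WT replicate 1 (-0.89; 0.1949) with SB431542 and labelled WT replicates 1 and 2 with activin A (-1.22 in both; 0.05927 and 0.05928).

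The difference between these differences (with activin A minus with SB431542) was 2.25 ± 0.43 for Nanog on the log2 scale (limma, adjusted p = 0.006206), where 26.3% of genes were called, 16.1% higher and 10.1% lower. The sign and the call held in each fit that left out 1 library, with values from 1.84 to 2.66. Because Trim33 goes against the genotype labels of the SB431542 libraries, a difference in treatment response and an exchange of labels cannot be told apart in this value. Lin28a was also called by this test, at -0.47 ± 0.15 (limma, adjusted p = 0.04664), and its call was lost in each of the 8 fits that left out 1 library (adjusted p-values from 0.05618 to 0.172).

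Lin28a was at 184 and 195 RPKM in the libraries labelled WT and at 157 and 153 RPKM in those labelled KO with activin A. With SB431542 it was at 159 and 165 RPKM in the libraries labelled WT and at 183 and 186 RPKM in those labelled KO. In each treatment the libraries with less Trim33 had less Lin28a, without overlap. The log2 fold changes between labels were -0.29 ± 0.11 with activin A (limma, adjusted p = 0.1238) and 0.18 ± 0.11 with SB431542 (limma, adjusted p = 0.3137), and neither was called.

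Sall4 was at 70.4 and 60.5 RPKM in the libraries labelled WT and at 78.1 and 71.5 RPKM in those labelled KO with activin A. With SB431542 it was at 84.5 and 68.9 RPKM in the libraries labelled WT and at 67.7 and 56.0 RPKM in those labelled KO. The groups did not overlap in either treatment, but the gap between the nearest libraries was small beside the spread within groups. Neither difference was called (log2 fold changes 0.19 ± 0.15 and -0.30 ± 0.15). The difference between these differences, 0.50 ± 0.21 for Sall4 on the log2 scale, was not called either (limma, adjusted p = 0.119).

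**Figure D5:**
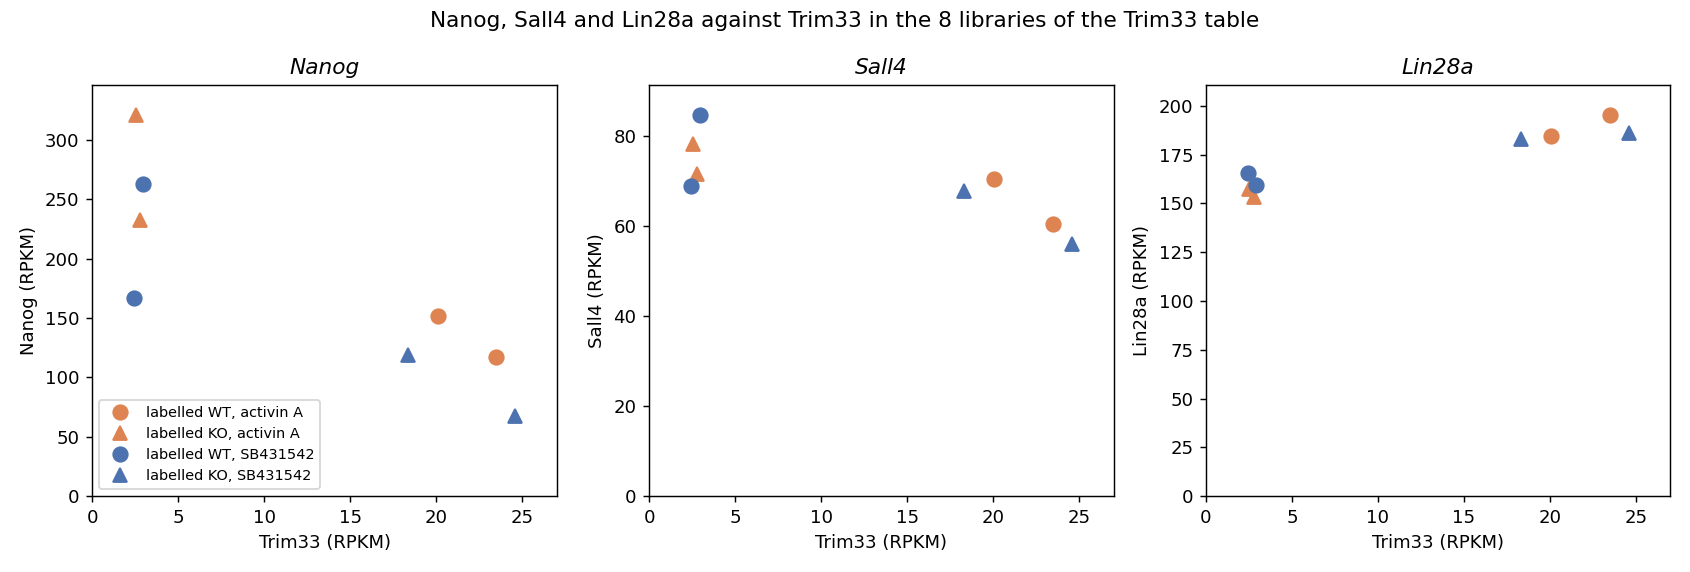
Nanog, Sall4 and Lin28a (vertical axes from 0, RPKM) against Trim33 (horizontal axis, RPKM) in the 8 libraries of the Trim33 table; circles are labelled WT and triangles labelled KO, orange is activin A and blue SB431542. Nanog is at 67.1 to 152 RPKM in the libraries with Trim33 at 18.3 RPKM or more and at 167 to 321 RPKM in those with 2.94 RPKM or less.

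Pou5f1, Sox2 and Utf1 were not called in any Trim33 comparison. Pou5f1 was at 949 and 853 RPKM (labelled WT) and at 811 and 934 RPKM (labelled KO) with activin A. With SB431542 it was at 813 and 946 RPKM (labelled WT) and at 1019 and 805 RPKM (labelled KO). The groups overlapped in both treatments, and the 95% intervals of the log2 fold changes ran from -0.43 to 0.33 and from -0.33 to 0.43.

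Sox2 was at 226 and 215 RPKM (labelled WT) and at 198 and 191 RPKM (labelled KO) with activin A, without overlap. With SB431542 it was at 203 and 184 RPKM (labelled WT) and at 221 and 199.8 RPKM (labelled KO), with overlap. The intervals of its log2 fold changes were -0.45 to 0.08 and -0.14 to 0.39. Utf1 was at 285 and 200.04 RPKM (labelled WT) and at 201 and 214 RPKM (labelled KO) with activin A. With SB431542 it was at 179 and 208 RPKM (labelled WT) and at 340 and 195 RPKM (labelled KO). Its groups overlapped in both treatments. The intervals were -0.78 to 0.37 and -0.17 to 0.99, and the first holds both of the fold changes called for Utf1 in the other tables.

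The treatment comparison asks what activin A changed against SB431542. Averaged over both genotype labels, a mean that does not change if labels are exchanged within a treatment, no member was called, where 0.109% of genes (13 of 11914) were called. Lefty1, a direct activin target, separated the treatments: 191 to 373 RPKM with activin A and 7.06 to 30.6 RPKM with SB431542. The largest mean difference among the members was that of Nanog, 0.48 ± 0.21 on the log2 scale (95% interval -0.01 to 0.96; limma, adjusted p = 0.9996, unadjusted p = 0.05449). The other 5 lay between -0.01 and 0.04, with 95% intervals that reached from -0.41 to 0.40 at the widest.

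Within labels, Nanog was called higher with activin A in the libraries labelled KO (log2 fold change 1.60 ± 0.30; limma, adjusted p = 0.01527), where 10.5% of genes were called, 7.18% higher and 3.29% lower, and this was the 1 member called. That call was lost without labelled KO replicate 1 with activin A (limma, adjusted p = 0.09996) and without labelled KO replicate 2 with SB431542 (0.06024), the adjusted p-values running from 0.01205 to 0.09996. In the libraries labelled WT no member was called, where 11.3% of genes were called (3.89% higher, 7.45% lower), and none had an unadjusted p under 0.05. The log2 fold change of Nanog there was -0.65 ± 0.30 (limma, adjusted p = 0.2076). Both of these comparisons set libraries with high Trim33 against libraries with low Trim33, so treatment and Trim33 level cannot be told apart in them.

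Some other genes of the network were arranged like Nanog in the Trim33 table, and some were not. Of 7 OCT4 and SOX2 targets 3 were called higher in the libraries labelled KO with activin A and 3 lower with SB431542: Zfp42, Fbxo15 and Spp1, which encodes osteopontin, in both. Zfp42 was at 41.6 and 30.9 RPKM (labelled WT) and 90.2 and 80.8 RPKM (labelled KO) with activin A. With SB431542 it was at 94.3 and 76.7 RPKM (labelled WT) and 45.2 and 32.4 RPKM (labelled KO). In the difference between differences 3 of the 7 targets were called higher, 2 lower and 2 were not called, where 26.3% of genes were called. Tdgf1 (-0.91 ± 0.19 on the log2 scale) was among those with the sign opposite to that of Nanog. Of the 16 network regulators limma called none between genotype labels in either treatment, with 7 at unadjusted p under 0.05 with activin A and 5 with SB431542. In the test of the difference between differences, 4 regulators were called higher and 2 lower. Nr5a2 (2.23 ± 0.45 on the log2 scale), a nuclear receptor that can stand in for OCT4 in reprogramming, Dppa2 (1.21 ± 0.25) and Klf2 (1.45 ± 0.33) had the sign of Nanog in that test, and Klf4 (-1.23 ± 0.32) the opposite sign.

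Of 14 paralogs 5 were called lower in the libraries labelled KO with activin A and 4 higher with SB431542. Lin28b, the close relative of Lin28a, was at 15.9 and 18.4 RPKM (labelled WT) and 8.56 and 9.04 RPKM (labelled KO) with activin A. With SB431542 it was at 8.15 and 9.002 RPKM (labelled WT) and 15.4 and 19.8 RPKM (labelled KO), the arrangement that Lin28a had with smaller differences. None of 12 genes of the LIN28 and let-7 pathway, 11 NuRD subunits or 10 reference genes was called by limma between labels in either treatment. At unadjusted p under 0.05 there were 1, 3 and 2 with activin A and 3, 3 and 1 with SB431542. Medians over these lists ran from -0.20 to 0.16 on the log2 scale. In the difference between differences 1 gene of the LIN28 and let-7 pathway was higher and 2 were lower, Drosha (-0.75 ± 0.18), which encodes the nuclear microRNA-processing enzyme, and Mycn (-1.03 ± 0.29). Of the NuRD subunits 1 was higher and 2 were lower there, and of the reference genes 1 was higher and 1 lower.

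Markers of a two-cell-like state, which some ES cells enter for a time, moved with Nanog. The 7 markers summed to 0 to 0.114 RPKM (labelled WT) and 6.69 to 16.4 RPKM (labelled KO) with activin A, and to 7.22 to 17.0 RPKM (labelled WT) and 0.124 to 0.128 RPKM (labelled KO) with SB431542. In the libraries labelled WT with activin A 5 of the 7 were listed at 0, Zscan4a and Zscan4c among them. The 6 neuroectoderm markers summed to 75.1 to 75.4 RPKM (labelled WT) and 134 to 144 RPKM (labelled KO) with activin A, and to 122 to 140.3 RPKM and 69.0 to 76.1 RPKM with SB431542. That sum followed Tubb3, a neuronal tubulin gene, at 56.1 and 54.5 RPKM (labelled WT) and 131 and 119.8 RPKM (labelled KO) with activin A. Of 4 tested neuroectoderm markers Tubb3 was called higher and Sox1 lower there (median -0.24 on the log2 scale), and Nes was at 14.7 and 16.9 RPKM (labelled WT) and 9.56 and 11.98 RPKM (labelled KO). With SB431542 Tubb3 was called lower and no other of the 4 was called. The other sums are given in the same order, labelled WT and KO with activin A and then labelled WT and KO with SB431542. Trophectoderm markers summed to 156 to 209, 205 to 288, 196 to 277.5 and 155 to 209 RPKM. Primitive endoderm sums were 10.6 to 12.6, 13.97 to 30.4, 12.95 to 27.7 and 9.71 to 10.6 RPKM, and mesendoderm sums 11.4 to 17.0, 8.77 to 11.8, 4.73 to 5.72 and 6.81 to 10.3 RPKM. Fibroblast sums were 222 to 249.9, 216 to 356, 199 to 338 and 233 to 244 RPKM. Their part in the values of Nanog was not tested, nor was that of Eif2s3y, which moved with Trim33.

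The likeness of profiles was described over all 16 libraries, each table centred on its own mean, as Pearson's r of log2(value + 1) among 10868 genes tested in all tables. These libraries share tables and treatments, so r describes them and carries no test. Tables were centred but not scaled, so the largest change of a gene weighs most in its r. For Pou5f1 and Sox2 that was the fall with arsenite (-0.75 and -0.89 on the log2 scale). The members most alike were Nanog and Sall4 (r = 0.92), followed by Pou5f1 and Sox2 (r = 0.90). Utf1 was unlike the rest, with r from -0.40 (Nanog) to -0.01 (Pou5f1), and Sall4 and Lin28a had r = 0.11.

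The genes most like Nanog were Mov10 (r = 0.97), which encodes an RNA helicase, Prdm14 (0.97) and Adap1 (0.96). Those most like Pou5f1 were Anp32b (0.98), Spc24 (0.98), which encodes a kinetochore protein, and Samm50 (0.98). Those most like Sox2 were Upp1 (0.99), which encodes uridine phosphorylase, Txnip (0.98) and Hspa9 (0.98), which encodes a mitochondrial chaperone. Those most like Sall4 were Trim28 (0.97), which encodes the corepressor KAP1, Ndrg1 (0.96) and Adap1 (0.95). For Lin28a they were Pcyt1b (0.95), Hdgfrp3 (0.95) and Lsm14a (0.94). For Utf1 they were Stub1 (0.92), Dusp12 (0.91) and Vps16 (0.90), lower than the closest genes of any other member.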

How the data were processed

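RNA-seq libraries (Illumina TruSeq RNA kit, per the labels' protocols) were analysed from 3 tables deposited by the authors. The authors named the Pml table's values FPKM and the arsenite table's values RPKM. No unit is named for the Trim33 table; RPKM was inferred for these deposited values, since of low values (under 20 reads) in single-exon genes 91.0% to 94.5% fell within 0.05 of a whole read (93.01% to 94.9% for arsenite, 20.8% to 25.5% for Pml). FastQC 0.11.5, Bowtie2 2.3.3, SAMtools 1.9, featureCounts 2.0.1, DESeq2 and mm10 are named, without roles, in the submitters' processing notes. Groups came from sample titles; untreated columns of the arsenite table carry another letter than the titles and were matched only as a group.

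Genes reaching 1 in 2 or more libraries of a table were kept, and 27 date-like names per table left out. Each table was fitted with limma 3.58.1 (R 4.3.3) on log2(value + 1), which understates changes of low genes (eBayes with trend, two-sided, Benjamini-Hochberg; residual degrees of freedom 2, 2 and 4). With 2 libraries against 2, an exact permutation test cannot go below 0.333, so calls rest on the spread limma shares between genes. On simulated arsenite data (11851 genes) 99.7% of 2-fold changes were recovered, and on simulated Trim33 data with activin A (11571 genes) 67.2%. For the difference between differences (11598 genes) 17.3% of simulated 2-fold changes were recovered. Far fewer genes were changed in each simulation than were called in the data, so these shares need not hold for the data.

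Members and gene lists were chosen with earlier results of these data known. Of each list at most the 4 genes with the smallest p were named in a comparison. Pml, Trim33, Eif2s3y and Lefty1 checked the labels. For each member the 3 genes of highest r were named, leaving out other members, Rik, LOC, numbered Gm and pseudogene names. Alternatives were another pseudocount, filter, scaling and trend, a replicate block, fits of 2 groups and leaving out each library. Python 3.11.15, pandas 2.3.3, numpy 2.4.6 and matplotlib 3.10.9 were used for the rest.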

Additional observations from a re-analysis of the deposited data

Results flagged for a closer look

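Nanog differed between the genotype labels by an amount that itself differed between treatments: the difference labelled KO minus labelled WT with activin A, minus the same difference with SB431542, was 2.25 ± 0.43 on the log2 scale (limma, adjusted p = 0.006206). With activin A both libraries labelled KO were above both labelled WT, and with SB431542 both were below. Lin28a differed in the same test with the opposite sign, at -0.47 ± 0.15 (limma, adjusted p = 0.04664). Trim33 itself has the same opposite arrangement between these labels, and so has Eif2s3y, so a difference in treatment response and an exchange of genotype labels cannot be told apart by this value.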

How the results depend on the processing

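Over the 6 members and 8 comparisons, 642 alternative fits kept the direction and the side of the threshold, 21 lost a call, 7 gained one and 32 changed sign, all in the Trim33 table and none of them called before or after. With quantile scaling, sign changes gave log2 values of -0.0238 for Pou5f1 with SB431542, 0.0775 for Pou5f1 between treatments (labelled KO), and 0.0862, 0.0416 and 0.004105 for Pou5f1, Utf1 and Lin28a averaged over labels. Without 1 library, Pou5f1 ran from -0.1495 to 0.0547 (activin A), -0.124 to 0.216 (SB431542), -0.0724 to 0.145 and -0.227 to 0.113 (between treatments, labelled WT and KO), -0.0953 to 0.0749 (averaged) and -0.264 to 0.0768 (difference between differences). Utf1 ran from -0.457 to 0.0503 (activin A), -0.711 to 0.0881 (between treatments, labelled KO) and -0.203 to 0.196 (averaged), and averaged values ran from -0.0466 to 0.0992 for Sall4 and from -0.0331 to 0.00712 for Lin28a. All arsenite calls were kept. The call on Nanog with SB431542 was lost without the filter (limma, adjusted p = 0.1028) and without the trend (0.053), that between treatments in the libraries labelled KO without the filter (0.05102), and that on Lin28a in the difference between differences with quantile scaling (0.05444) and without the trend (0.08312), while Nanog with activin A passed with only the 2 groups compared in the fit (0.009466). The count of genes called averaged over labels (13) was 8 without the filter. With only the 2 groups compared, counts were 1852 (labelled KO minus WT, activin A; 1123 with all groups), 608 (SB431542; 1139) and 753 (activin A minus SB431542, labelled KO; 1248). Same-numbered libraries correlated at 0.02 in the Pml table and at -0.14 to 0.60 in the Trim33 table, so the numbers were not taken as pairing the samples. With the replicate block the averaged count was 23, Nanog with activin A passed (adjusted p = 0.005786), as did Nanog between treatments in the libraries labelled WT (0.02048) and Sall4 in the difference between differences (0.03113). With crossed numbers as the block, chosen after seeing the data, counts were 989 (SB431542) and 1940 (between treatments, labelled KO). No paired analysis of arsenite was possible because the untreated columns carry another letter than the titles, so that their numbers are not tied to samples. Leaving out 1 library at a time, with the lone library assumed to vary like the others, gave 3046 to 3833 calls for Pml (4130 with all), 6937 to 7549 for arsenite (8221), 184 to 1537 for activin A, 296 to 1025 for SB431542, 268 to 1828 and 228 to 1178 between treatments in the libraries labelled WT and KO, 7 to 16 averaged, and 1846 to 3395 for the difference between differences (3129). Utf1 passed that last test (adjusted p = 0.03616) without labelled KO replicate 2 with SB431542. Quantile scaling moved the share of calls that were higher from 60.1% to 49% with arsenite, from 70.1% to 57.9% (activin A), from 31.5% to 41.7% (SB431542), from 68.6% to 57.8% (between treatments, labelled KO) and from 61.5% to 49.5% (difference between differences). The causes were not tested. Depth limits none of the members' values in the arsenite and Trim33 tables.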
